A study of Mus musculus with 6 samples.

Results

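Id proteins and E proteins set how much of the myogenic factor MyoD can bind DNA, and the transcripts of 9 genes of this circuit were measured in cultured muscle satellite cells (MuSCs), the stem cells of skeletal muscle. The genes were taken from the table by symbol: the Id genes *Id1*, *Id2* and *Id3*, the E protein genes *Tcf3*, *Tcf4* and *Tcf12*, and the repressors *Msc*, *Twist1* and *Twist2*. They are 9 of the 20654 genes in the count table, and 6 of them were among the 8551 genes with enough counts to be tested. MuSCs of the control group carried the label wild type, and the paper names the RNA-seq controls *Pax7*CreERT2/+. The *Piezo1* cKO group was *Piezo1* flox/flox with *Pax7*CreERT2/+, in which a Cre recombinase made from the *Pax7* locus and activated by tamoxifen cuts the gene of the mechanosensitive ion channel PIEZO1 in cells that express *Pax7*. Both groups had a C57BL/6 background, were sorted as VCAM1+ cells that lacked CD31, CD45 and Sca1, and were grown for 3 days in growth medium with 1 µM 4-hydroxytamoxifen. In addition, the paper's methods describe tamoxifen injections into the mice for ex vivo studies, before cells were isolated. The age of the mice is not given in the sources used here.

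Each group held 3 libraries, numbered 1 to 3. Total counts of unique molecular identifiers (UMIs, tags that mark a cDNA molecule before PCR) were 740936, 931168 and 891531 in control and 810096, 726378 and 769295 in *Piezo1* cKO. The labels do not say whether libraries of a group came from separate mice, so p-values measure the spread between these libraries, which may be technical. *Piezo1* itself was counted 11, 5 and 6 times in control and 7, 12 and 9 times under the *Piezo1* cKO label. The groups overlapped, and the label was not borne out by the counts of the whole gene. Counts near the 3′ end of the transcript can include transcripts that lack the deleted part, so they do not test the deletion. The study also measured *Piezo1* in these cells by RT-qPCR, which was not analysed here. The group is therefore called by its label throughout.

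MyoD and its relatives are basic helix-loop-helix (bHLH) factors, which bind the E-box, the letters CANNTG, as a pair with an E protein. The E proteins are E2A, encoded by *Tcf3*, TCF4 (also called E2-2) and HEB, encoded by *Tcf12*. Id proteins have the helix-loop-helix but lack the basic region that touches DNA, so they capture E proteins in pairs that do not bind the E-box, and their genes are known targets of BMP signalling through SMAD factors. Musculin (*Msc*) and the Twist proteins also compete with MyoD for E proteins or for DNA.

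To show what an E-box looks like at a gene that MyoD and its partners are known to activate, and at an Id gene, the RefSeq windows around the start sites of *Myog* (myogenin) and *Id2* are given from 250 bases before to 50 bases after the start. Capitals mark each CANNTG. Both are read 5′ to 3′ on the gene's strand in GRCm38.p6, at chr1:134289754-134290053 on the plus strand for *Myog* and chr12:25096043-25096342 on the minus strand for *Id2*.
Myog: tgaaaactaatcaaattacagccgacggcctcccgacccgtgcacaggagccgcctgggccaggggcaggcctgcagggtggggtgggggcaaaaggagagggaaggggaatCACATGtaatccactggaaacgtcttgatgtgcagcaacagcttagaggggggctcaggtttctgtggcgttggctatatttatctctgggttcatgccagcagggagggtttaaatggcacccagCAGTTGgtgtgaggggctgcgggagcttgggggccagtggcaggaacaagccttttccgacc
Id2: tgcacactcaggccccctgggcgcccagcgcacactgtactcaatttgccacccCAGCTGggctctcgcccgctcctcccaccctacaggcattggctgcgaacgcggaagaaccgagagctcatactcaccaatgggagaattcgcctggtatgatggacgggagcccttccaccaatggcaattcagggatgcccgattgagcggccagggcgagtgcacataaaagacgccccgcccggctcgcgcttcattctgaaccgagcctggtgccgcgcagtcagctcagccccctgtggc

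The *Myog* window held CANNTG with its first base at positions -138 and -12 from the start site. The *Id2* window held it at -196, in the form CAGCTG. The first reads the same on both strands, and the second is contained in it. The RefSeq table matched 6 of the 9 genes. An E-box was found at -54 for *Tcf3* and in all 3 start-site windows of *Tcf12*, and not in the windows of *Id3*, *Twist1* or *Twist2*. Since 72.3% of all 32851 windows held the E-box letters and 16.3% held the form seen at *Id2* (61.9% and 14.3% of those of genes tested), these matches are a description and not a sign of binding.

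Among the other letters searched on both strands, GGCGCC, which can be part of a SMAD-bound element, was at -231 for *Id2* and in 11.9% of all windows, or 22.6% of the 8553 windows of genes tested. CACCTG (20.2% of all windows) and TGACGTCA (1.79%) were found in no window of the members that matched.

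None of the 6 members tested was called between the libraries labelled *Piezo1* cKO and control (edgeR's quasi-likelihood test, Benjamini-Hochberg adjusted p under 0.05), where 67 of 8551 genes, or 0.784%, were called. DESeq2, which gave an adjusted p for 4007 genes including all 6 members, also called 0 of the 6, beside 27 of the 4007. Counts of DESeq2 calls in the lists below cover only the genes to which it gave one. At an unadjusted p under 0.05 there was 1, *Tcf12*, beside 1019 of all 8551 genes, the share against which such counts in the lists below are to be read. *Id1* had an estimate of 0.01 on the log2 scale and *Id2* and *Id3* had estimates below 0, none distinguishable from 0, while 2 of the 3 E protein genes, *Tcf4* and *Tcf12*, had higher levels in every *Piezo1* cKO library than in any control library and the third, *Tcf3*, had lower levels in every one with TMM scaling but not with total counts. Of all genes tested, 8.20% lay higher in this way and 8.31% lower. The median log2 fold change of the 6 was -0.05, against 0.0021 for all genes tested.

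*Id1*, a gene on chromosome 2 of GRCm38 from 152736251 to 152737410, had 300, 318 and 317 counts in control and 330, 266 and 299 in *Piezo1* cKO. Scaled with edgeR's TMM factors to a library total of 1e6 (CPM), these were 431, 355 and 374 against 418, 351 and 396 CPM. The highest and the second lowest of the 6 values were control libraries and the groups overlapped fully. The means were 387 ± 39.9 and 389 ± 34.1 CPM (SD, n = 3), with a log2 fold change of 0.01 (SE 0.13, edgeR adjusted p = 0.987). The 95% interval of the fold ran from 0.838 to 1.21.

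*Id2*, on chromosome 12 from 25093799 to 25097140, had 647, 590 and 508 CPM in control and 582, 440 and 504 CPM in *Piezo1* cKO. The lowest 2 values were *Piezo1* cKO libraries and the highest 2 were control libraries, and the groups overlapped between them. The means were 582 ± 70.1 and 508 ± 71.1 CPM (SD, n = 3). The log2 fold change was -0.19 (SE 0.14, edgeR adjusted p = 0.62), with an interval of the fold from 0.724 to 1.06.

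*Id3*, on chromosome 4 from 136143497 to 136145755, had 1090, 737 and 936 CPM in control and 896, 751 and 921 CPM in *Piezo1* cKO. All 3 *Piezo1* cKO values lay inside the range of the control libraries, which held both the highest and the lowest value. The means were 923 ± 179 and 856 ± 91.5 CPM (SD, n = 3), with a log2 fold change of -0.11 (SE 0.15, edgeR adjusted p = 0.848) and an interval of the fold from 0.761 to 1.14. The sign of this estimate turned to 0.11 with cyclic loess scaling and to 0.04 without control library 1. For *Id3*, the coefficient of variation was 19.4% in control, where counting alone would give 3.68%, so the spread between libraries and not the depth set its error.

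The Id counts summed to 2170, 1680 and 1820 CPM in control and 1900, 1540 and 1820 CPM in *Piezo1* cKO, and the groups overlapped. Within a library, *Id3* gave from 43.8% to 51.5% of the Id counts and *Id2* from 27.7% to 35.1%, with overlapping groups for both. *Id1* gave 19.9%, 21.1% and 20.6% in control and 22.1%, 22.8% and 21.8% in *Piezo1* cKO. This share did not depend on library scaling, and its groups did not overlap, with means of 20.5% ± 0.62 and 22.2% ± 0.52 (SD, n = 3). No test was made of the shares. With 3 libraries against 3, an exact two-sided permutation test of a single value cannot go below p = 0.1.

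**Figure D1:**
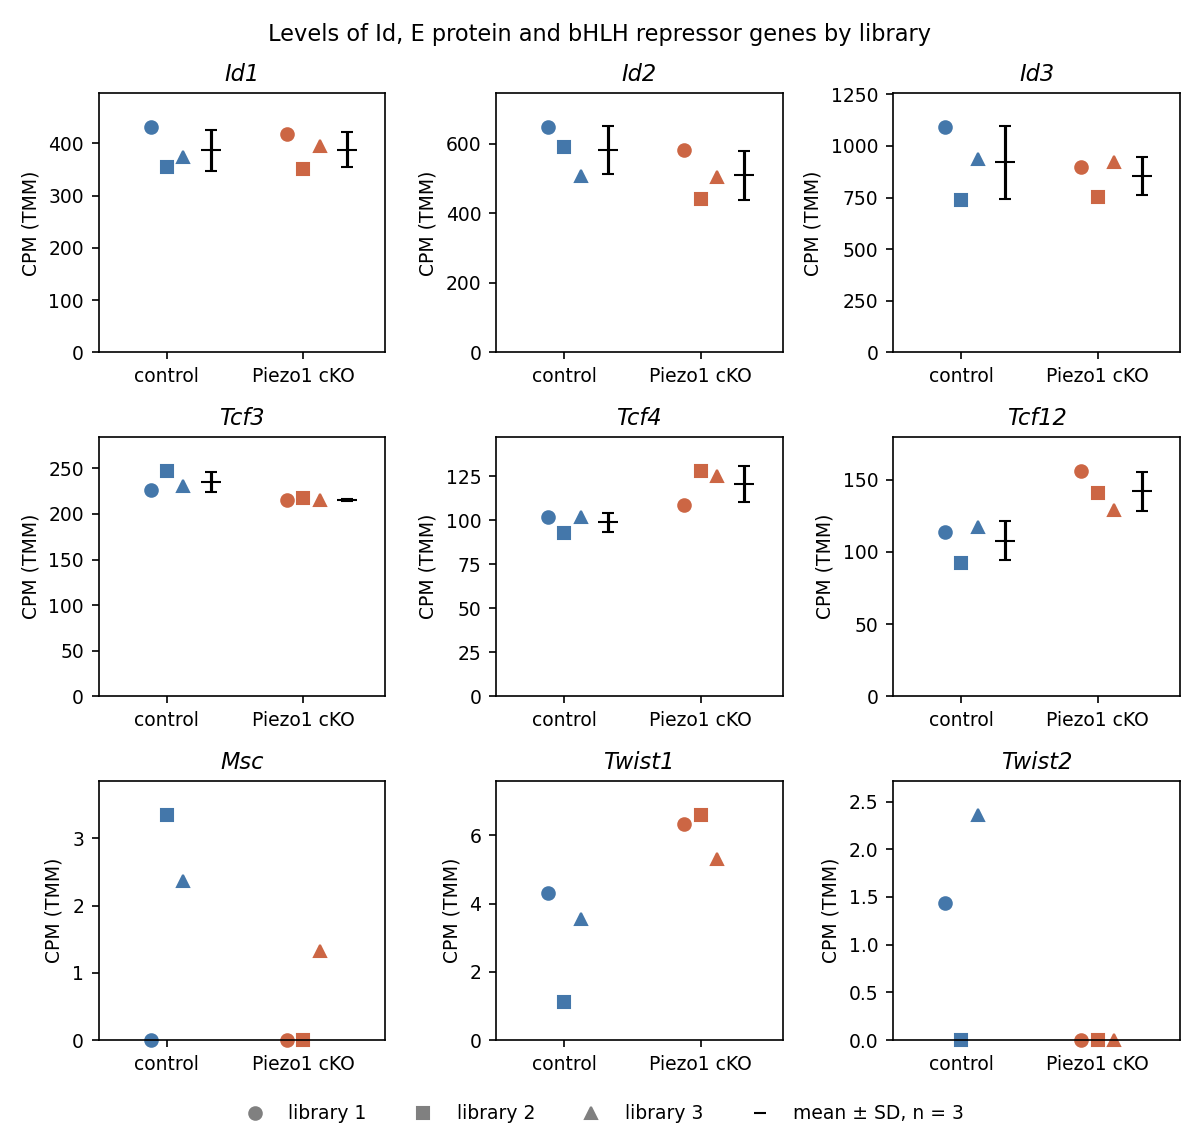
TMM-scaled CPM of the 9 genes (vertical axes, each from 0 and on its own scale) in the 3 control (blue) and 3 *Piezo1* cKO (red) libraries. Symbols give the library number, and bars give the mean ± SD (n = 3) for the 6 genes tested. *Tcf4* and *Tcf12* lie higher in all *Piezo1* cKO libraries than in any control library and *Tcf3* lies lower on this scale, the 3 Id genes overlap, and the bottom row holds at most 6.6 CPM.

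*Tcf12* had the largest estimate of the 6 and encodes HEB, a known partner of MyoD in differentiating muscle cells. Its gene lies on chromosome 9 from 71842688 to 72111871. Its levels were 114, 92.6 and 117 CPM in control and 156, 141 and 129 CPM in *Piezo1* cKO. Every *Piezo1* cKO library was above every control library on this scale, whereas the raw counts (79, 83 and 99 against 123, 107 and 97) overlapped at 97 and 99. The means were 108 ± 13.2 and 142 ± 13.7 CPM (SD, n = 3). The log2 fold change was 0.40 (SE 0.16, edgeR unadjusted p = 0.013, adjusted p = 0.247), or 1.32-fold with an interval from 1.06 to 1.65, and it did not pass the adjusted threshold.

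*Tcf4*, on chromosome 18 from 69343356 to 69689079, had 102, 92.6 and 102 CPM in control and 109, 128 and 125 CPM in *Piezo1* cKO. The groups did not overlap, with *Piezo1* cKO library 1 nearest to control. The means were 98.7 ± 5.35 and 121 ± 10.2 CPM (SD, n = 3), and the log2 fold change was 0.29 (SE 0.16, edgeR adjusted p = 0.484). These 71 to 97 counts per library gave a counting coefficient of variation of 11.2% in control and 10.4% in *Piezo1* cKO, above the 5.41% and 8.43% observed.

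*Tcf3*, on chromosome 10 from 80409514 to 80433647, had 226, 247 and 231 CPM in control and 215, 217 and 215 CPM in *Piezo1* cKO. On this scale it was lower in every *Piezo1* cKO library than in any control library. Scaled to total counts only, the values were 212, 237 and 220 against 210, 226 and 211 per 1e6, and the groups overlapped. The difference was small, with means of 235 ± 10.7 and 216 ± 0.976 CPM (SD, n = 3) and a log2 fold change of -0.12 (SE 0.14, edgeR adjusted p = 0.794). The SD of *Piezo1* cKO, 0.453% of the mean, was far under the 7.78% that counting alone gives, so it understates the error of *Tcf3*. Thus groups without overlap split 2 higher and 1 lower of the 6 members with TMM scaling and 2 higher and 0 lower with total counts, and with 6 genes these counts single out nothing about the family.

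Summed over the 3 genes, E protein levels were 441, 432 and 450 CPM in control and 480, 486 and 468 CPM in *Piezo1* cKO. The lowest *Piezo1* cKO sum was above the highest control sum, with means of 441 ± 9.12 and 478 ± 9.37 CPM (SD, n = 3). *Tcf3* gave 51.1%, 57.1% and 51.4% of the E protein counts in control and 44.9%, 44.6% and 45.9% in *Piezo1* cKO. *Tcf12* gave 25.7%, 21.4% and 26% against 32.5%, 29.1% and 27.5%. Thus the share of *Tcf3* was lower and that of *Tcf12* higher in every *Piezo1* cKO library, while the share of *Tcf4* (22.4% ± 0.856 against 25.2% ± 2.2, SD, n = 3) overlapped. The shares were not tested, and as parts of the same total they are not separate observations.

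**Figure D2:**
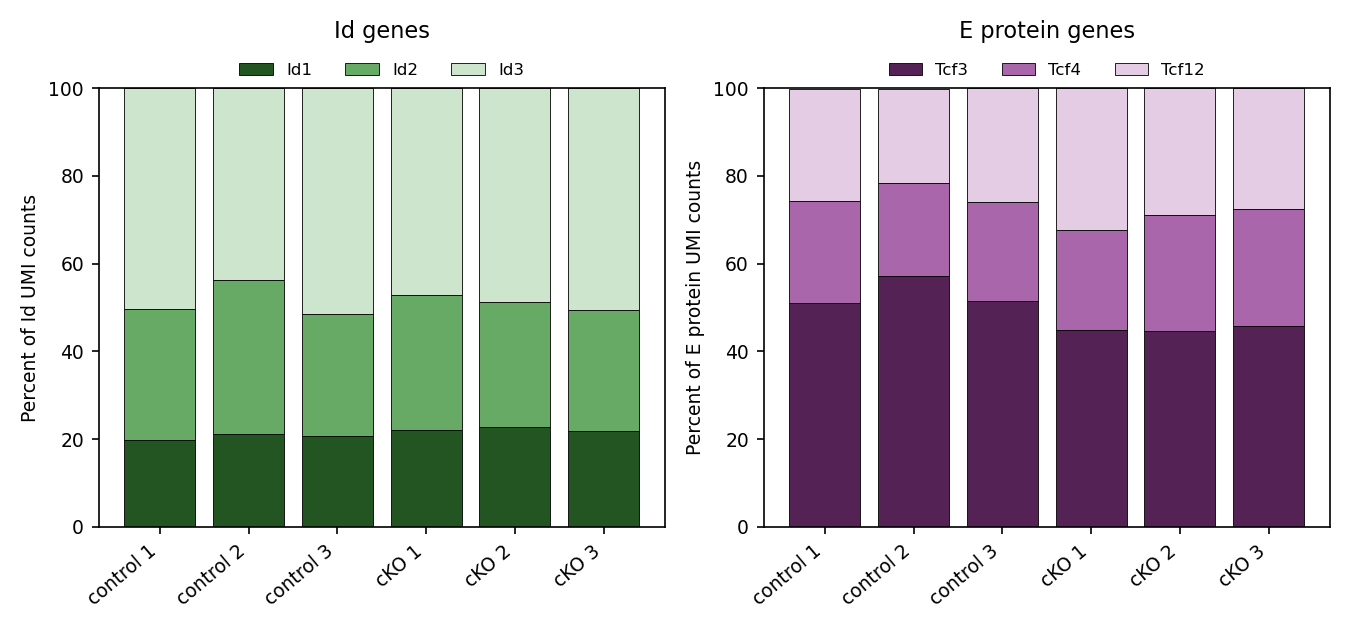
Share of the UMI counts of the Id genes (left) and E protein genes (right) given by each gene, in percent, with 1 stacked bar per library. The *Tcf3* share lies between 51.1% and 57.1% in control and between 44.6% and 45.9% in *Piezo1* cKO, and the *Id1* share between 19.9% and 21.1% and between 21.8% and 22.8%. The *Tcf12* share also lies apart, those of *Id2*, *Id3* and *Tcf4* overlap, and no share was tested.

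The balance of Id to E protein counts, which bears on how much E protein could pair with MyoD if proteins followed transcripts, was 4.92, 3.9 and 4.04 in control and 3.95, 3.17 and 3.89 in *Piezo1* cKO. The groups overlapped, at 4.29 ± 0.555 and 3.67 ± 0.432 (SD, n = 3). Id counts per count of *Myod1*, the gene of MyoD, were 1.29 ± 0.0814 and 1.35 ± 0.073 (SD, n = 3) and overlapped too. E protein counts per *Myod1* count were 0.281, 0.316 and 0.312 in control and 0.323, 0.447 and 0.346 in *Piezo1* cKO, without overlap. The *Myod1* counts below the line were lower on average in *Piezo1* cKO, and *Myod1* had 1460 ± 102 CPM in control and 1310 ± 205 CPM in *Piezo1* cKO (SD, n = 3).

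Compared between genes as mean CPM over all 6 libraries, *Id3* was highest (889), followed by *Id2* (545), *Id1* (388), *Tcf3* (225), *Tcf12* (125) and *Tcf4* (110). CPM per kilobase of annotated exon was 497 for *Id3*, 334 for *Id1*, 224 for *Id2*, 55.7 for *Tcf3*, 8.04 for *Tcf12* and 4.00 for *Tcf4*. UMI counts of oligo-dT primed cDNA come from transcript ends and not from the whole length, so the values per kilobase do not rank transcript levels. By CPM alone *Id2* was above *Id1* in every library, and their reverse order per kilobase rests on the length. *Tcf12* and *Tcf4* overlapped in control CPM, and their order per kilobase rests on annotated exons of 15529 and 27382 bases. The other neighbours kept 1 order on both scales.

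**Figure D3:**
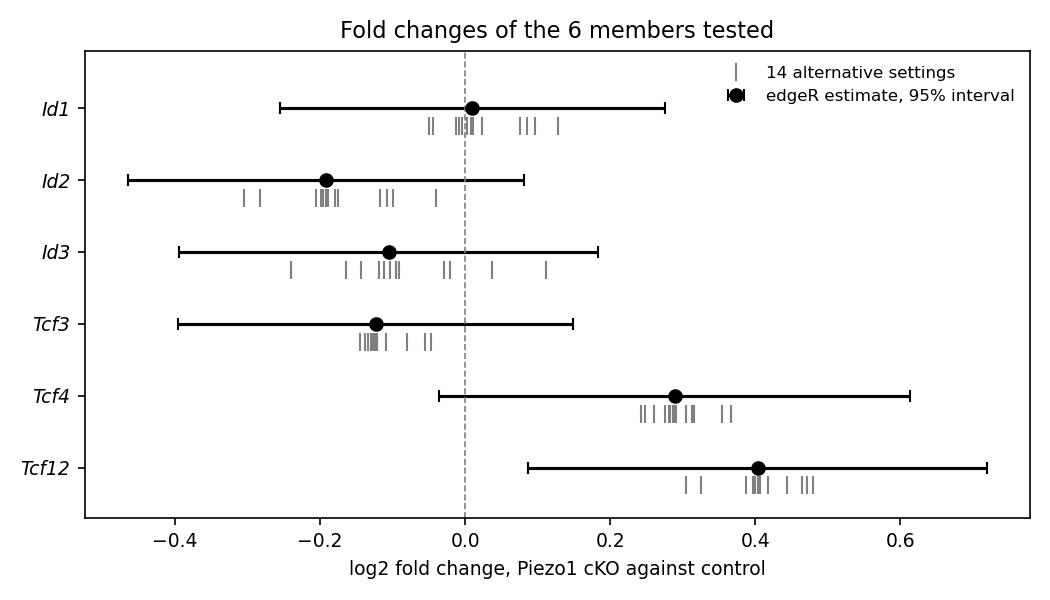
log2 fold change of the 6 members tested, *Piezo1* cKO against control, with the 95% interval of the edgeR estimate (black) and the estimates under 14 alternative settings (grey ticks). The interval of *Tcf12* (0.09 to 0.72) lies above 0 and the other 5 intervals include 0, and ticks of *Id1* and *Id3* lie on both sides of 0.

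The repressors were near or below the floor of 3 counts, which corresponds to between 3.35 and 4.31 CPM. *Twist1* had 3, 1 and 3 counts in control and 5, 5 and 4 in *Piezo1* cKO, higher in each of the latter. Its pooled counts of 7 and 14 gave a ratio of 2.22 after scaling to total counts, with a 95% counting interval from 0.84 to 6.51 that includes 1. *Msc* had 0, 3 and 2 counts in control and 0, 0 and 1 in *Piezo1* cKO, a ratio of 0.222 with an interval from 0.0047 to 1.99. *Twist2* had 1, 0 and 2 counts in control and 0 in each *Piezo1* cKO library, at or under the floor in both groups. No difference in these 3 genes was detectable at this depth. Exons of *Msc* and *Twist2* overlap annotated antisense genes, *Gm9947* and *Gm29100*, and a strand setting is not given in the sources used here, so such reads cannot be told apart.

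Among the 6 members, the closest pattern over the 6 libraries was that of *Id1* and *Id3*, whose centred log2 CPM differed by 0.1129 (root mean square), and the farthest was that of *Id2* and *Tcf12*, at 0.3505. *Tcf4* and *Tcf12* differed by 0.1633. Over all genes tested, the genes most like *Id1* were *Zfp553* (0.031), *Derl1* (0.0331) and *Asah1* (0.034). Those most like *Id2* were *Ilrun* (0.0348), *Adarb1* (0.0438) and *Slc35b1* (0.044), and those most like *Id3* were *Cks1b* (0.0513), *Myl6* (0.0611) and *Cox6a1* (0.0626). The values of a library its depth and scaling, so these likenesses are descriptions.

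Of the other Id and class A bHLH genes, 6 of 17 had rows and 3 were tested, with 0 called by edgeR or by DESeq2 (2 with an adjusted p) and 1 (*Atoh8*) at an unadjusted p under 0.05. *Id4*, the fourth Id gene, had 23, 8 and 16 counts in control and 21, 26 and 17 in *Piezo1* cKO, with overlapping groups (log2 fold change 0.51, SE 0.33, edgeR adjusted p = 0.572), and passed the filter through *Piezo1* cKO. The bHLH factor genes *Atoh8* (0.34, adjusted p = 0.399) and *Scx* (0.15, adjusted p = 0.761) also had estimates above 0 and overlapped.

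Of the myogenic bHLH genes, whose products pair with E proteins, 3 of 4 were tested, 0 were called by edgeR or by DESeq2 (2 with an adjusted p) and 0 had an unadjusted p under 0.05. *Myog*, which marks the onset of differentiation, had 40, 3 and 45 counts in control and 63, 203 and 92 in *Piezo1* cKO. All *Piezo1* cKO values were above all control values, with the highest in *Piezo1* cKO library 2 and the lowest in control library 2 (log2 fold change 2.09, SE 0.89, edgeR adjusted p = 0.468). *Myog* reached the filter's minimum, 12.7 counts per 1e6 of the raw total, in all libraries of *Piezo1* cKO but not in all of control, so it was partly kept because it was high there. *Myod1* had an estimate of -0.15 (adjusted p = 0.743), which turned to 0.09 with cyclic loess scaling, and *Myf5* one of 0.28 (adjusted p = 0.698).

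A list of Hes, Hey and Bhlhe bHLH repressors and the Groucho corepressors of the Tle family, which carry no bHLH, had 7 of 14 genes tested (*Hes1*, *Hes6*, *Hey1*, *Bhlhe40*, *Bhlhe41*, *Tle1* and *Tle3*). edgeR called 0 of the 7, DESeq2 0 of the 2 with an adjusted p, and 2 had an unadjusted p under 0.05, beside 1019 of all 8551 genes. *Hey1* had 8, 6 and 2 counts in control and 11, 23 and 11 in *Piezo1* cKO, without overlap (log2 fold change 1.55, SE 0.45, edgeR adjusted p = 0.0817) and was called without control library 1 (0.0391) and without *Piezo1* cKO library 1 (0.0268). It was not called with any other library left out, with an edgeR adjusted p up to 0.659 (without *Piezo1* cKO library 2). The other gene under the unadjusted threshold was *Bhlhe41* (0.83, adjusted p = 0.273). Both reached the filter's minimum in all libraries of *Piezo1* cKO and not in all of control, so they were tested because they were high there. *Hes6*, which is known to promote myogenic differentiation, was the most abundant at 1080 ± 297 and 1230 ± 179 CPM (SD, n = 3), with overlap. The median of the 7 was 0.24, and 0.20 over the 5 others.

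Other repressors of MyoD or of E-box genes gave 0 called of 12 tested by edgeR and of 6 by DESeq2, with 1 at an unadjusted p under 0.05 and a median of 0.11 that turned to -0.0044 with cyclic loess scaling. *Hdac5*, a histone deacetylase that holds back MEF2 factors, had 0.53 (edgeR adjusted p = 0.266), *Mdfic* 0.41 (0.608), *Snai2*, whose product occupies E-boxes, -0.14 (0.818) and *Hdac1* -0.14 (0.76). MyoD coactivators gave 0 called of 14 by edgeR and of 5 by DESeq2, with 2 at an unadjusted p under 0.05 and a median of 0.08. Their estimates were 0.45 for *Mef2a* (edgeR adjusted p = 0.187), 0.98 for *Meis1* (0.276) and 0.05 for *Smarca4* (0.933). *Mef2a* and *Meis1* were higher in every *Piezo1* cKO library than in any control library, and *Meis1* passed the filter through *Piezo1* cKO.

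The genes that MyoD with its E protein partners is known to activate in differentiation had a median log2 fold change of 0.57 over 21 genes tested. edgeR called 0 of the 21, beside 67 of all 8551 genes, and DESeq2 called 1 of the 16 with an adjusted p, beside 27 of all 4007. At an unadjusted p under 0.05 there were 8, beside 1019 of all 8551 genes. The groups did not overlap for 10 of the 21, all higher in *Piezo1* cKO, beside 8.20% of all genes. However, 7 of the 21 (*Myog*, *Mymk*, *Tnnt1*, *Tnni1*, *Tnnc1*, *Myl4* and *Actc1*, named after their values were seen) reached the filter's minimum in all libraries of *Piezo1* cKO and not in all of control, so their direction was partly set by the filter. Over the other 14 genes, 4 had an unadjusted p under 0.05, beside 900 of 8048 such genes in the whole table. Their median was 0.17 (-0.0131 over the 8048), and 3 were without overlap and higher, beside 542 of the 8048. *Acta1*, skeletal muscle actin and the gene that DESeq2 called (adjusted p = 0.00485), had 46, 57 and 80 counts in control and 133, 353 and 205 in *Piezo1* cKO (log2 fold change 2.01, SE 0.49, edgeR adjusted p = 0.241). *Tnnc1*, slow and cardiac troponin C, had 9, 6 and 11 against 25, 98 and 41 counts (2.72, edgeR adjusted p = 0.273), and *Actc1*, cardiac actin, 6, 0 and 0 against 11, 96 and 21. edgeR called *Acta1* and *Tnnc1* without *Piezo1* cKO library 1 (adjusted p = 2.62e-15 and 9.38e-14) and without *Piezo1* cKO library 2 (0.0011 and 0.0115), and *Tnnc1* passed with cyclic loess scaling (0.0452). With any other library left out, neither was called, and the edgeR adjusted p rose to 0.616 for *Acta1* and 0.455 for *Tnnc1*. The highest value of *Myog*, *Acta1*, *Tnnc1* and *Actc1* was in *Piezo1* cKO library 2, which had the lowest summed Id level of all, whereas control library 2, with the lowest of the controls, had the lowest *Myog*, *Acta1* and *Tnnc1* values in CPM (for *Acta1* by 63.6 against 66.2, and not in raw counts). The most abundant genes of the list, *Chrna1* (-0.19, adjusted p = 0.678) and *Cdkn1a* (-0.13, adjusted p = 0.775), overlapped between groups.

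Of the BMP and SMAD pathway, which is known to drive Id genes, 39 of 42 genes had rows and 20 were tested. None of the 20 was called by edgeR, nor of the 10 with an adjusted p by DESeq2, and 3 had an unadjusted p under 0.05, beside 1019 of all 8551 genes. Estimates were higher for 10 and lower for 10, with a median of 0.0095 that turned to -0.04 with cyclic loess scaling. *Smad4*, the common partner of receptor-activated SMADs, had 126 ± 4.66 and 121 ± 12 CPM (SD, n = 3), with a log2 fold change of -0.06 (edgeR adjusted p = 0.923). *Ski*, a SMAD corepressor, had 16, 18 and 26 counts in control and 11, 9 and 12 in *Piezo1* cKO (-0.82, adjusted p = 0.293). It reached the filter's minimum in all libraries of control and not in all of *Piezo1* cKO, so it was partly kept because it was high in control. *Tob1*, an antiproliferative factor that binds SMADs, had 0.41 (adjusted p = 0.215), and *Fst*, which passed the filter through *Piezo1* cKO and encodes the activin and BMP antagonist follistatin, 1.02 (adjusted p = 0.191, and 0.0315 without *Piezo1* cKO library 1). *Fst* was not called with any other library left out, with an edgeR adjusted p up to 0.819 (without *Piezo1* cKO library 2).

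**Figure D4:**
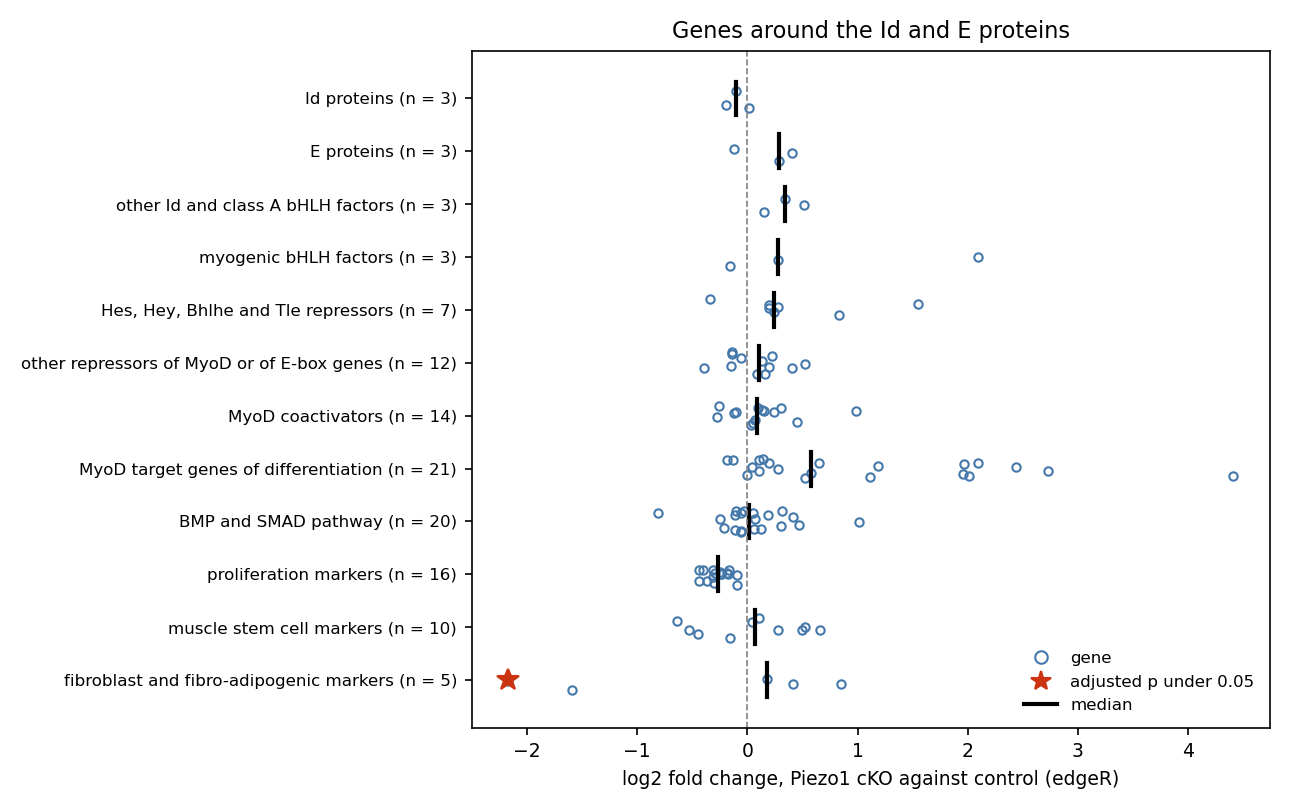
log2 fold change of each gene tested, *Piezo1* cKO against control, for 12 gene lists, with the list's median as a bar and n as the genes tested. The star is *Dcn*, the gene of these lists called by edgeR. The median of the MyoD target genes is 0.57 (0.17 over the 14 whose passing of the filter did not rest on *Piezo1* cKO) and that of the proliferation markers -0.27.

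Proliferation markers, genes of cycling cells in which Id proteins are typically abundant, gave 0 called of 16 by edgeR and of 15 by DESeq2 and 6 at an unadjusted p under 0.05, beside 1019 of all 8551 genes. All 16 estimates were below 0, with a median of -0.27, and 5 of 16 were lower in every *Piezo1* cKO library than in any control library, beside the 8.31% of all genes. *Mcm5*, a subunit of the replicative helicase, had a log2 fold change of -0.44 (edgeR adjusted p = 0.137) and *Aurkb*, a mitotic kinase, one of -0.44 (0.234). Both passed without *Piezo1* cKO library 1 (edgeR adjusted p = 0.0134 and 0.0454). Neither passed with any other library left out, with values up to 0.624 and 0.682. *Rrm2* (-0.24, 0.531) and *Ccnb1* (-0.17, 0.683) were the most abundant.

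The labelled cell type was checked against MuSC markers. *Myod1*, *Des* (527 ± 97.2 and 564 ± 44 CPM, SD, n = 3) and *Pax7* (10, 26 and 19 counts in control and 16, 5 and 12 in *Piezo1* cKO) were present in every library. Of 15 MuSC markers 14 had rows, and *Calcr* had none. *Heyl* and *Chodl*, named after their values were seen, had 0 counts in each control library. In *Piezo1* cKO they had 1, 6 and 3 counts and 2, 1 and 0 counts. None of the 10 MuSC markers tested was called by edgeR, nor of the 7 with an adjusted p by DESeq2. The 5 with an unadjusted p under 0.05, beside 1019 of all 8551 genes, went in both directions, and all but *Sdc3* were named after their values were seen. *Sdc3* (0.66, edgeR adjusted p = 0.167) and *Cdh15* (0.53, 0.118) were higher in every *Piezo1* cKO library than in any control library, *Megf10* (0.50, 0.396) was above 0 with overlap, and *Sdc4* (-0.53, 0.0609) and the sort marker *Vcam1* (-0.45, 0.185) were lower in every one. *Pax7* had -0.64 (edgeR adjusted p = 0.481) with overlap. It reached the filter's minimum in all libraries of control and not in all of *Piezo1* cKO, so its direction was partly set by the filter. In such bulk samples, fewer cells of a type and less RNA per cell cannot be told apart.

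Id, *Tcf4* and Twist transcripts are also made by fibroblasts and vessel cells. Of these, the sort against Sca1 and CD31 would remove only those that carry Sca1 or CD31, and that against CD45 would remove blood cells. *Ly6a*, the gene of Sca1, named after its values were seen, had too few counts to be tested. It had 2, 2 and 3 counts in control and 5, 8 and 9 in *Piezo1* cKO, without overlap. Of 15 fibroblast markers 13 had rows, *Pi16* was at 0 in every library, and their summed level was 525, 616 and 853 CPM in control and 629, 709 and 717 CPM in *Piezo1* cKO, with *Gsn* as the most abundant (244 CPM). edgeR called 1 of 5 tested, *Dcn*, which encodes the matrix proteoglycan decorin and fell from 18, 23 and 37 counts to 8, 5 and 3 (log2 fold change -2.17, SE 0.38, adjusted p = 0.000387). It reached the filter's minimum in all libraries of control and not in all of *Piezo1* cKO, and was also called with each of the 6 libraries left out in turn. DESeq2 called *Cd34* (adjusted p = 0.000824), a marker of progenitors that MuSCs also make, with 53, 172 and 91 against 39, 23 and 35 counts, where edgeR's adjusted p was 0.181, and 9e-06 and 0.000232 without control library 1 or 2. With any other library left out edgeR did not call *Cd34*, with an adjusted p up to 0.48 (without *Piezo1* cKO library 2). In the opposite direction, *Col3a1* had an estimate of 0.41 (edgeR adjusted p = 0.265, and from 0.00477 without control library 3, the only such call, to 0.702 without *Piezo1* cKO library 2). That of *Col1a2*, named after its values were seen, was 0.85 (0.125). Both genes had overlapping groups. With *Dcn* and *Cd34*, these made up the 4 of 5 at an unadjusted p under 0.05, beside 1019 of all 8551 genes. Their part in the levels of the members was not tested.

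Endothelial markers (7 of 10 with rows, 0 tested, *Tie1* at 0, *Tek* the most abundant at 5.23 CPM) summed to between 8.27 and 22.5 CPM, and Schwann cell markers (8 with rows, 0 tested, *Mbp* the most abundant at 3.14 CPM) to between 9.45 and 15.8 CPM. Blood cell markers (4 of 10 with rows) summed to 60.4, 51.3 and 73.2 CPM in control and 87.5, 71.3 and 79.5 CPM in *Piezo1* cKO. *Laptm5* made up most of this sum, with a log2 fold change of 0.52 (edgeR adjusted p = 0.302). Pericyte and smooth muscle markers (9 of 10 with rows) summed to 869, 538 and 1010 against 994, 1090 and 1040 CPM, with *Des* and *Acta2*, which myogenic cells also make, the main parts. None of the 3 tested was called by edgeR, nor of the 2 with an adjusted p by DESeq2, and 1 had an unadjusted p under 0.05, *Cspg4* (0.76, edgeR adjusted p = 0.143). The part of these cells in the levels of the members was not tested.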

How the data were processed

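RNA-seq counts of 6 libraries of cultured MuSCs, 3 per group, were analysed, with groups and numbers from the sample labels. The authors reverse transcribed total RNA with barcoded oligo-dT primers, and, per their processing notes and methods, used STAR 2.7.9a, featureCounts 2.0.1 and UMI-tools 1.1.1 with GRCm38. The deposited values are raw UMI counts per gene. Settings for reads with several matches and for strand are not given in the sources used here.

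The main test was edgeR 4.0.16 in R 4.3.3 (TMM, a filter on low counts with a minimum of 10, robust quasi-likelihood fit, Benjamini-Hochberg adjustment over 8551 genes, called under 0.05). Standard errors come from the estimate and its F statistic, and single values were compared by exact permutation tests. Alternatives were DESeq2 1.42.0, limma-voom (limma 3.58.1), DESeq2 size factors, total counts only, cyclic loess with 3 iterations, no filter, at least 10 counts in every library, the replicate number as a block, an adjusted p under 0.1 and each library left out in turn. The calculation was tested on simulated data. Coordinates are from GENCODE and start-site windows from RefSeq.

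The members and gene lists were chosen with earlier results of these data known. Genes named were the members, *Piezo1*, and from each list the genes called by edgeR or DESeq2, the 2 most abundant and the 2 with the largest fold change, and the 3 genes most like each Id gene. Markers at 0 and the most abundant marker of an untested list were named in addition. A few genes that this rule would name are not reported here. Intervals of edgeR folds rest on the spread between libraries, whereas the intervals of the *Twist1* and *Msc* ratios and the floors cover counting error only. Pairs of libraries within a group differed by a chi-square per degree of freedom of 1.64 to 2.61, above sampling noise.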

Additional observations from a re-analysis of the deposited data

How the results depend on the processing

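No member was called under any of the 14 alternatives. *Id2*, *Tcf3*, *Tcf4* and *Tcf12* kept the sign of their estimates in all 14, with ranges of the log2 fold change from -0.30 to -0.04, from -0.15 to -0.05, from 0.24 to 0.37 and from 0.30 to 0.48. The adjusted p of *Tcf12* ranged from 0.138 to 0.627. *Id1* turned to -0.0037 with DESeq2 and ranged from -0.0502 to 0.0959 when each library was left out in turn. *Id3* turned to 0.11 with cyclic loess and ranged from -0.2402 to 0.0364 when each library was left out in turn, above 0 only without control library 1. The causes were not tested.

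The count of all genes called was 67 of 8551 with edgeR, 27 of the 4007 genes to which DESeq2 gave an adjusted p, 32 with cyclic loess, 129 without the filter and 124 at an adjusted p under 0.1. Leaving out each library in turn gave from 6 genes (without *Piezo1* cKO library 2) to 174 (without *Piezo1* cKO library 1), with 105 without control library 1, 131 without control library 3 and 29 without *Piezo1* cKO library 3. Total counts only gave 49 higher and 18 lower, against 40 higher and 27 lower with TMM, and moved the median of all genes to 0.08, the farthest of these settings. DESeq2 gave the opposite balance, 12 higher and 15 lower, and cyclic loess gave 17 higher and 15 lower. Same-numbered libraries of the 2 groups had correlations of -0.14, -0.20 and 0.01 in their deviations from the group means, so the numbers do not pair the samples. A fit with this number as a replicate block called 46 genes, 36 of them among the 67, and the adjusted p was 0.00418 for *Acta1* and 0.00463 for *Tnnc1*, while that of *Tcf12* was 0.416. Since the numbers do not pair the samples, these values from the block are not a firmer result. Cyclic loess gave an adjusted p of 0.0452 for *Tnnc1* and 0.273 for *Acta1*, and edgeR with total counts only gave 0.272 and 0.243. Depth limits the 3 repressor genes most, at 0 to 5 counts per library.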
